A study of Mus musculus with 54 samples.

Results

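The spinal motor neurons of the lumbar cord (SC) were examined at P112, a symptomatic age by the study design (P marks the postnatal day), in SOD1G93A transgenic mice (mSOD) and in wild-type littermates (wt). The 8 libraries were chosen by their sample titles out of the 54 in the series, which also holds oculomotor and trochlear (CN3/4), vagal (CN10) and hypoglossal (CN12) motor neurons and an earlier, pre-symptomatic age, P56. The comparison had 3 mSOD libraries and 5 wt libraries. Motor neurons were cut out of tissue by laser capture microdissection and sequenced as bulk polyA libraries (Smart-seq2, a full-length method that gives no molecular identifiers and no strand). Every mSOD cell type carries the human transgene, which is driven by the human SOD1 promoter. Every library, mSOD or wt, is RNA of captured cells rather than of whole cord. The labels call the libraries of a group biological replicates and give neither the number of cells nor of animals behind each, nor a sex. Library names carry 1 of 3 project prefixes. The mSOD replicates 1, 2 and 3 came from projects P10814, P11355 and P6362, the wt replicates 1 and 2 from P10814, and the wt replicates 3 to 5 from P6362, so that P11355 held no wt library of this kind. The groups set beside them were lumbar neurons at P56 (5 mSOD, all P6362, and 5 wt, 2 of P11355 and 3 of P6362) and CN12 and CN3/4 neurons at P112 (3 mSOD and 3 wt libraries each, all P10814 except 1 CN12 mSOD library of P11355).

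Lumbar motor neurons send axons to limb muscles and use acetylcholine as their transmitter. Their fast-fatigable alpha type, marked by Chodl and Mmp9, is the first to withdraw from muscle in SOD1 mice, whereas eye-movement neurons of CN3/4 are largely spared and tongue motor neurons of CN12 are affected. Misfolded protein and amino acid shortage raise ATF4, the transcription factor of the integrated stress response, which in turn raises DDIT3 (CHOP), FGF21 and enzymes of serine and amino acid supply. A neuron whose axon is cut raises another set, with ATF3, SOX11, GAP43 and SPRR1A as its best known members.

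Library totals were 2903514 to 4558906 counts in mSOD and 1071477 to 4261470 in wt, against 1071477 to 8877994 over all 54 libraries. Human SOD1 took 3.99 to 6.22% of the counts in mSOD (5.12% ± 1.12, SD, n = 3) and 0.000467 to 0.00176% in wt (n = 5), so each library matched its genotype label. The mouse Sod1 gene (ENSMUSG00000022982) had 708, 417 and 831 CPM (counts scaled to a common library size, with TMM factors) in the mSOD replicates 1, 2 and 3 and 556, 693, 815, 851 and 736 in the wt replicates 1 to 5, with a log2 fold change of 0.17 ± 0.22 (SE; edgeR adjusted p = 0.878). The motor neuron markers were present in every library: Chat, the acetylcholine-making enzyme, had 71.4, 61.0 and 57.5 CPM in mSOD and 75.5 to 108 in wt (median 87.9). Slc18a3, the vesicular acetylcholine transporter, which lies within the Chat locus so that reads of the pair may not be told apart everywhere, had 247 to 453 CPM in mSOD and 315 to 725 in wt.

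The wt replicate 1 stood apart from the other wt libraries. The summed level of the 18 motor neuron markers was 15000 CPM there, 21300 to 28400 in the other 4 wt libraries and 14800 to 17000 in mSOD. The summed level of 10 markers of other neurons (glutamatergic, GABAergic, glycinergic, monoaminergic, Pvalb, Sst) was 816 CPM in it, 63.1 to 202 in the other wt libraries, and 356, 962 and 1250 in the mSOD replicates 1, 2 and 3. Of these 10 markers, Th had no count in any of the 8 libraries, and Slc6a5, Slc17a6, Slc32a1 and Pvalb were high in the same libraries as the sum. None of the 10 passed the threshold in edgeR (4 higher at an unadjusted p under 0.05; 1, Slc17a6, called by DESeq2 and 0 by limma voom), with a median log2 change of 0.94. The 20 microglia markers summed to 155, 69.3 and 48.8 CPM in mSOD and to 17.8 to 27.2 in wt without overlap. Their defining genes Tmem119, Cx3cr1, P2ry12 and Aif1 were between 0 and 3.64 CPM in all 8 libraries, while C1qb had 22.1, 7.42 and 10.1 CPM in mSOD and 0.888 to 1.66 in wt. Of the 16 microglia markers tested, 15 had a positive change and none passed the threshold in edgeR, with 5 higher at an unadjusted p under 0.05. DESeq2 called 0 of them and limma voom called 1, Csf1r. Of all genes tested, 48.6% had a positive change and 4.79% were higher unadjusted. The astrocyte sums of the groups overlapped (from 1100 CPM in mSOD and from 1190 in wt). Of the 12 astrocyte markers tested, 8 had a negative change and 4 a positive one, with a median log2 change of -0.18. None passed the threshold in edgeR, and 1, Gfap, was higher at an unadjusted p under 0.05. Gfap, the filament of reactive astrocytes, thus went against most of its list. It had 49.9, 29.9 and 47.8 CPM in mSOD and 1.24 to 24.1 in wt (adjusted p = 0.123). In such bulk libraries, fewer cells of a type and less RNA per cell cannot be told apart, and the part that other cells' RNA has in the results below was not tested.

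**Figure D1:**
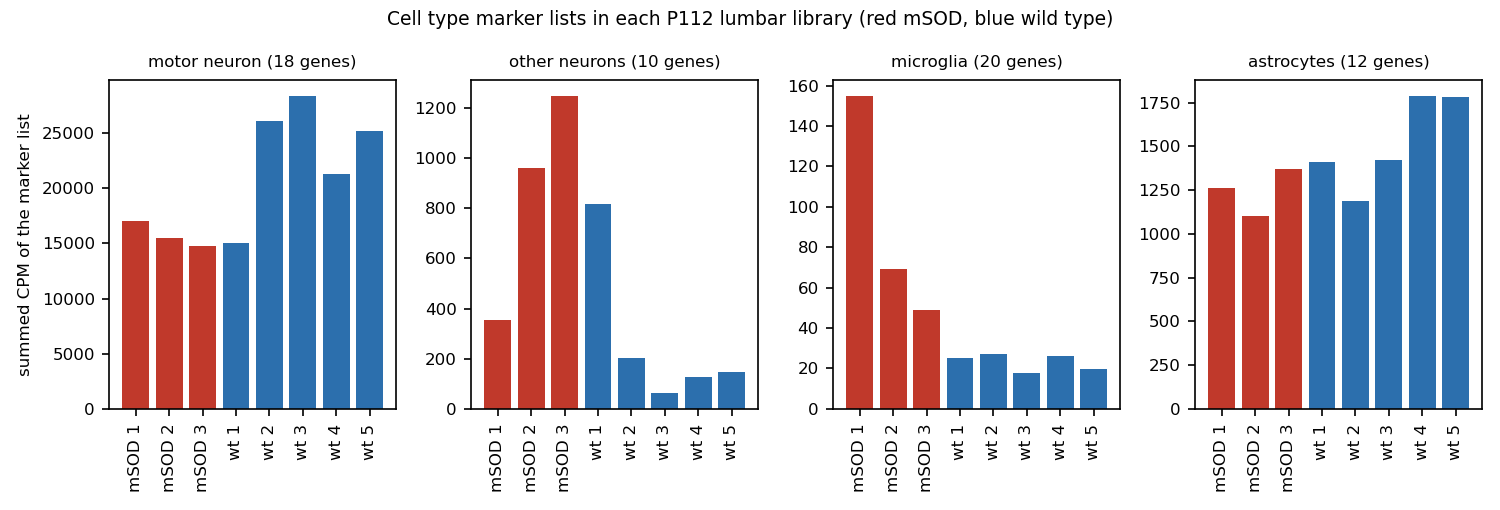
Summed CPM of the marker lists for motor neurons, other neurons, microglia and astrocytes in each of the 8 libraries, with one bar a library, red for mSOD and blue for wild type. The wt replicate 1 has a motor neuron sum of 15000, within the mSOD range, and an other-neuron sum of 816, and the microglia sums of mSOD (48.8 to 155) all lie above those of wild type.

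At P112, 87 of 18493 mouse genes tested passed an adjusted p under 0.05 (edgeR quasi-likelihood test, project as a covariate), which is 0.47% of the genes tested: 36 were higher (0.195%) and 51 were lower (0.276%) in mSOD. The higher genes were led by Gap43, Sprr1a, Cd63 and S100a11, and the lower genes by Hpcal1, Rab3b, Chodl and Dkk3. Their median log2 fold changes were 1.99 and -1.59, against -0.01 over all genes tested. The mSOD and wt libraries did not overlap in 31 of the 36 and 39 of the 51, where 2.18% and 2.58% of all genes tested had no overlap in these directions. Within both P10814 and P6362, the sign of the mSOD minus wt difference was that of the fit for 86 of the 87, and for 47.4% of all genes tested. The exception was Ina, at -0.05 within P10814. The 87 were selected by a test on these same libraries, so their lack of overlap and shared signs follow in large part from that selection. These counts are a description and no separate support, and so are the signs kept when a library was left out.

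The calls depended on single libraries more than their directions did. All 87 kept their sign when any of the 8 libraries was left out, but only 9 passed the threshold in all 8 of these fits: Gap43, Sprr1a, Cd63 and S100a11 among the higher genes, and Hpcal1, Rab3b, Chodl, Dkk3 and Imp3 among the lower ones. Without mSOD replicate 3, the only mSOD library of P6362, 17 of the 87 passed (20 genes in all). Without wt replicate 1, 79 of the 87 passed and the total rose to 174 genes. The other 6 left-out libraries kept 33 to 66 of the 87.

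**Figure D2:**
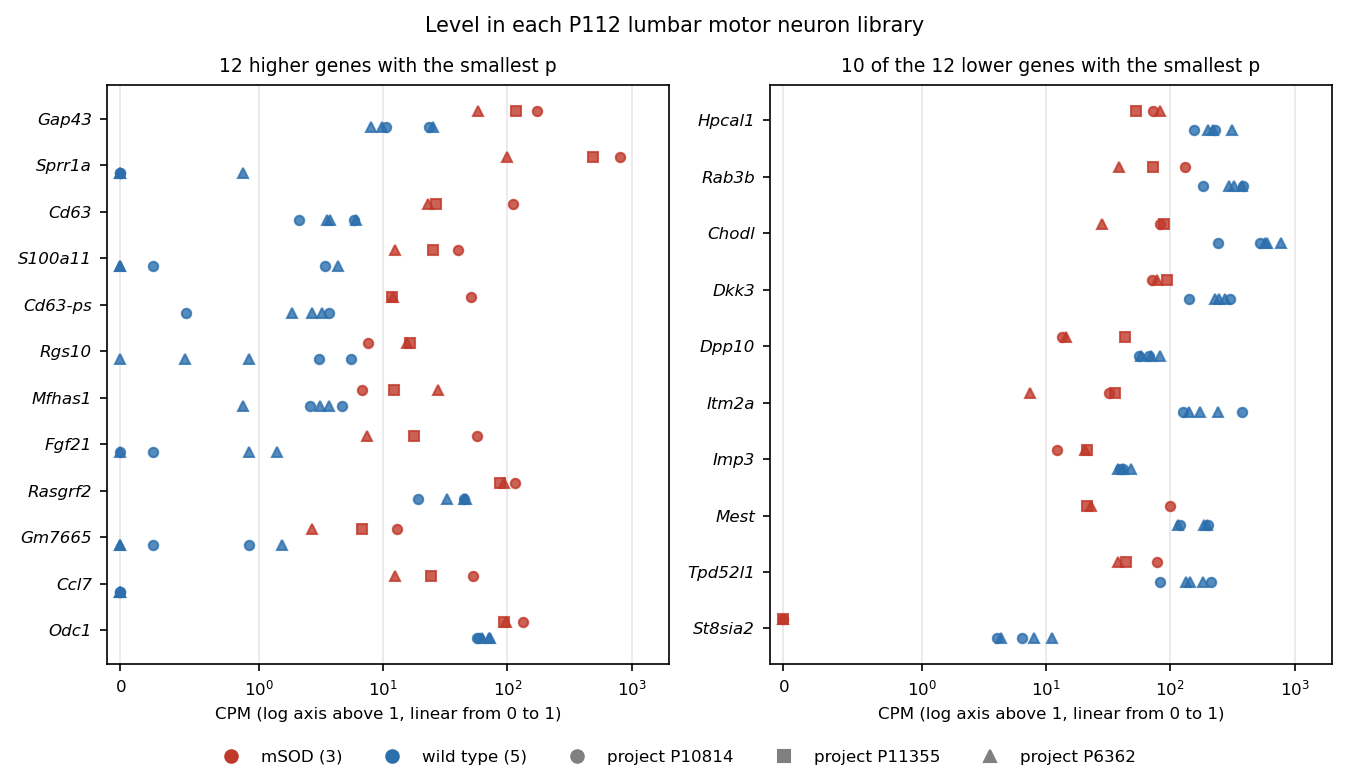
CPM of the 12 higher genes with the smallest p (left) and 10 of the 12 such lower genes (right) in each library, on an axis that is logarithmic above 1, with colour for genotype and marker shape for project. The groups do not overlap for any gene drawn, and Ccl7 has no count in any wild-type library while St8sia2 has none in any mSOD library.

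Genes of axon injury were among those with the smallest p. Of 26 tested genes on a nerve injury list, 4 rose (Gap43, Sprr1a, Atf3 and Sox11) and none fell, where 0.195% and 0.276% of all genes tested did. At an unadjusted p under 0.05, 11 were higher and 1 lower, where 4.79% and 5.08% of all genes tested were. The list's median log2 change was 1.54 (1.25 with genes that had no counts in 1 group set at their bound), and 19 of the 26 were positive, against 48.6% of all genes tested. The number called was 2 to 4 when any library was left out, and 2 without mSOD replicate 1 or wt replicate 2. With only the 18 lumbar libraries, edgeR called 2 of 21 tested members. With only the 8 P112 lumbar libraries it called 1 of 19 with the project term and 2 of 19 without it.

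Gap43 (ENSMUSG00000047261), a growth cone protein of growing and regrowing axons, had 172, 118 and 57.9 CPM in the mSOD replicates 1, 2 and 3. In the wt replicates 1 to 5 it had 23.5, 10.6, 8.0, 25.1 and 9.75 CPM. The lowest mSOD library was above the highest wt library, and the log2 fold change was 2.84 ± 0.41 (SE; adjusted p = 0.000164). Sprr1a (ENSMUSG00000050359), a small proline-rich protein of cornified skin that injured neurons switch on, had 802, 486 and 99.6 CPM in mSOD. Of the 5 wt libraries, 4 had no Sprr1a count and replicate 3 had 1, so the gene was practically on or off by genotype. Its ratio over the group totals was 6760 (95% counting interval 1210 to 267000; adjusted p of the fit = 0.000164). Atf3, the transcription factor that marks axotomised motor neurons, had 134, 45.5 and 6.73 CPM in mSOD and 0 to 1.86 CPM in wt (median 0). It was 6.36 ± 1.34 higher on the log2 scale (adjusted p = 0.0147), and lost the call without mSOD replicate 1 (0.121), wt replicate 1 (0.0698) or wt replicate 2 (0.15). Sox11, a developmental transcription factor that returns in regenerating neurons, had 44.0, 45.5 and 33.0 CPM in mSOD and 4.26 to 19.2 in wt (median 9.29). Its log2 change was 1.68 ± 0.37 (adjusted p = 0.018), which was lost without mSOD replicate 1 (0.186), mSOD replicate 3 (0.251), wt replicate 2 (0.165) or wt replicate 3 (0.0508).

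Other injury genes had large but uneven values. Jun, the partner of ATF3 in the AP-1 dimer, had 77.9, 42.7 and 69.0 CPM in mSOD and 15.5 to 40.9 in wt without overlap, at an adjusted p of 0.153. Gal, the neuropeptide galanin, had 149, 16.7 and 0 CPM in mSOD, and 0 to 16.4 in wt, so the mSOD libraries spanned the whole wt range. Ngfr, the p75 neurotrophin receptor, had 11.5, 9.97 and 2.35 CPM in mSOD and was at 0 in 4 of 5 wt libraries, with 1.86 CPM in replicate 1. Its log2 change was 3.94 ± 1.21 (adjusted p = 0.161).

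The integrated stress response list had 5 of its 30 tested genes higher (Fgf21, Ddit3, Slc7a3, Psat1 and Atf4) and none lower, where 0.195% and 0.276% of all genes tested were. A positive change was fitted for 26 of the 30 (48.6% of all genes tested), with a median of 0.87. At an unadjusted p under 0.05, 14 were higher (4.79% of all) and none lower (5.08% of all). The calls depended on the libraries in the fit. With only the 18 lumbar libraries, edgeR called 1 of 28 tested members higher (median 0.81). With only the 8 P112 lumbar libraries it called 0 of 26 with the project term (median 0.66). Without that term it called 1 of 26 (median 0.64). Atf4 itself had 188, 102 and 110 CPM in mSOD and 56.8 to 79.9 in wt (median 64.8). Every mSOD library was above every wt library, and the log2 change was 1.02 ± 0.24 (adjusted p = 0.033). Ddit3, the pro-apoptotic target of ATF4, had 129, 49.6 and 33.6 CPM in mSOD and 13.3 to 21.8 in wt (median 18), a log2 change of 1.90 ± 0.41 (adjusted p = 0.0149). Fgf21, a secreted hormone of fasting and mitochondrial stress, had 56.9, 17.6 and 7.40 CPM in mSOD, while the wt replicates 1 to 5 had 0, 0.236, 0, 0.929 and 1.39. It was 5.68 ± 1.03 higher on the log2 scale (adjusted p = 0.00437). Psat1, an enzyme of serine synthesis, had 114, 77.2 and 41.7 CPM in mSOD and 12.4 to 30.3 in wt, at 1.62 ± 0.38 (adjusted p = 0.0262). Slc7a3, a carrier of cationic amino acids, had 10.9, 3.48 and 5.38 CPM in mSOD and 2 counts in wt, all in replicate 2, which makes a ratio of 45.0 (95% counting interval 12 to 379; adjusted p = 0.0221).

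The stress genes were uneven among the mSOD libraries. Of the 9 genes called from the injury and stress lists, 8 were highest in mSOD replicate 1 and 7 were lowest in mSOD replicate 3. Among the other 27 higher genes, 11 were highest in replicate 1 and 15 in replicate 3. The microglia sum (155, 69.3 and 48.8 CPM) was also highest in mSOD replicate 1 and lowest in mSOD replicate 3. Atf4 and Slc7a3 were lowest in mSOD replicate 2 instead. The part of microglial RNA was not tested. Without mSOD replicate 1, none of the 5 stress genes kept its call (edgeR adjusted p from 0.176 for Psat1 to 0.312 for Atf4) and the median of the list was 0.37. Without wt replicate 2 none kept it either (0.0677 for Fgf21 to 0.211 for Atf4), with a median of 0.73, and without wt replicate 1 or 4 only 2 genes were called. Leaving out mSOD replicate 3 gave 3 calls on the list, Fgf21 and Ddit3 among them, with a median of 1.14, and leaving out wt replicate 3 also gave 3. Phgdh, the first enzyme of the same serine pathway, had 63 and 13.7 CPM in mSOD replicates 1 and 2 and 1.68 in replicate 3, which was within the wt range of 0.888 to 2.60 (adjusted p = 0.0804). Asns, asparagine synthetase, had 336, 162 and 133 CPM in mSOD and 141 to 205 in wt (adjusted p = 0.668).

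On 3 other stress lists no gene was called. None of 25 tested chaperones and degradation factors of the endoplasmic reticulum passed the threshold (edgeR; median -0.01; 1 higher and 1 lower at an unadjusted p under 0.05, Eif2ak3 and Pdia3; 0 by DESeq2 or limma voom). Eif2ak3, the kinase PERK, had 26.1, 26.2 and 19.2 CPM in mSOD and 6.19 to 16.7 in wt (adjusted p = 0.367). The heat shock list (17 tested, median -0.10) and the p53 and apoptosis list (19 tested, median 0.03) also had no called gene, with 0 and 1 higher and 1 and 1 lower at an unadjusted p under 0.05 (edgeR). DESeq2 called 1 gene of the p53 list, Sesn1, as lower, limma voom called none of it, and neither called a heat shock gene. Bag3, a co-chaperone of selective autophagy, had 226, 168 and 75.7 CPM in mSOD and 155 to 306 in wt.

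**Figure D3:**
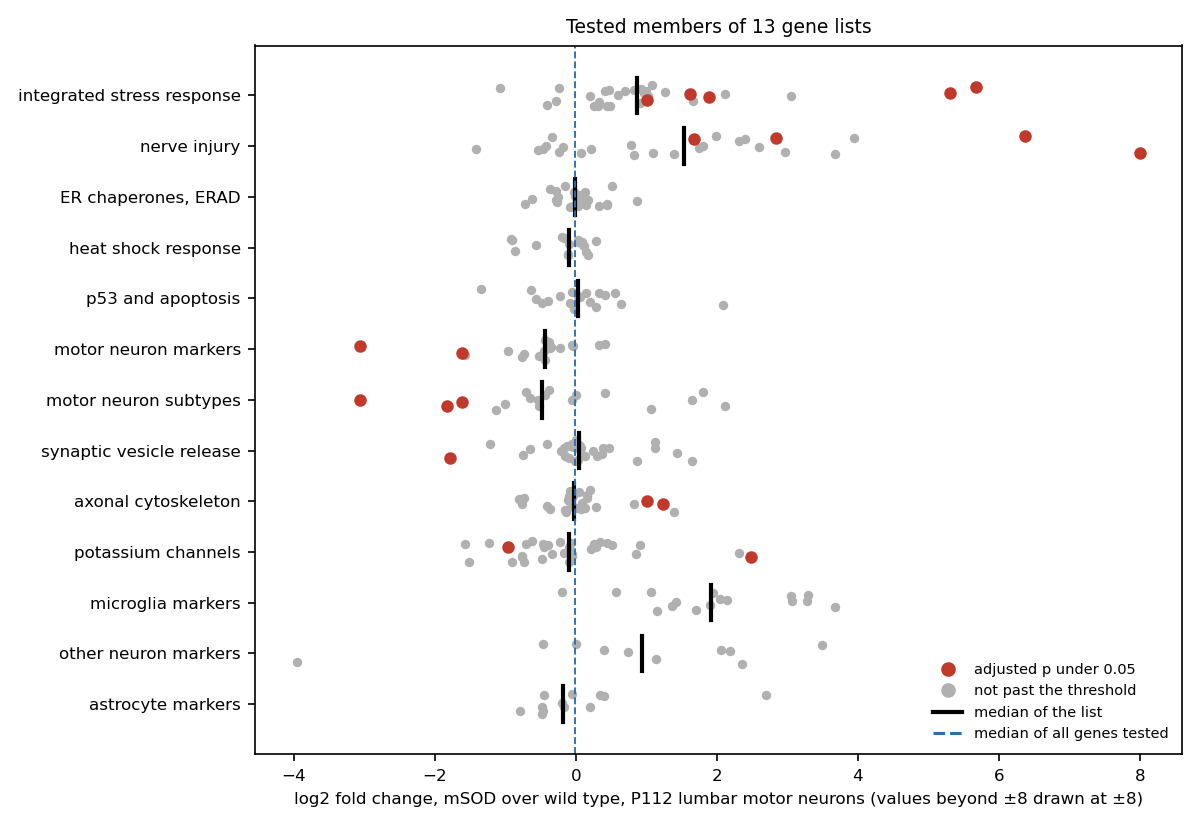
Log2 fold changes of the tested members of 13 gene lists (one point a gene, red where the adjusted p was under 0.05), with the list median as a black bar and the median of all genes tested as a dashed line. The integrated stress response and nerve injury medians are 0.87 and 1.54, the endoplasmic reticulum chaperone median is -0.01, and the motor neuron marker median is -0.43.

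The promoters of 4 called genes are shown because they hold letters known to bind ATF4 or AP-1 factors such as ATF3, whose own RNA rose. Each is the 250 bases before the RefSeq start in GRCm38.p6, 5′ to 3′ on the gene's strand, and capitals mark a match to TGATGNAA (the C/EBP-ATF composite element, searched on both strands) or to TGANTCA (AP-1, whose reverse complement is the same pattern). Another pattern, the cAMP response element TGACGTCA, which is its own reverse complement, was also searched and is in none of the 4.
Fgf21, chr7:45615491-45615740, minus strand: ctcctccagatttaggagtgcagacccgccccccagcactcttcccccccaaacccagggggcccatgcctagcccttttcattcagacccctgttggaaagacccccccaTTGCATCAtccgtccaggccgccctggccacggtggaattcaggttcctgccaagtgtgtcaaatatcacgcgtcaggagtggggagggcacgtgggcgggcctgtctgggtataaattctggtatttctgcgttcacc
Atf3, chr1:191183334-191183583, minus strand: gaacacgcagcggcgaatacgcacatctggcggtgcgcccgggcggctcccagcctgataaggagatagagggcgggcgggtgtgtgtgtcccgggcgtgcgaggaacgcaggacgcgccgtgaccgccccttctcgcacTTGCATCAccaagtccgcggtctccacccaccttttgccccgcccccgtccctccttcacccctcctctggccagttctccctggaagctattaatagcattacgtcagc
Ddit3, chr10:127290543-127290792, plus strand: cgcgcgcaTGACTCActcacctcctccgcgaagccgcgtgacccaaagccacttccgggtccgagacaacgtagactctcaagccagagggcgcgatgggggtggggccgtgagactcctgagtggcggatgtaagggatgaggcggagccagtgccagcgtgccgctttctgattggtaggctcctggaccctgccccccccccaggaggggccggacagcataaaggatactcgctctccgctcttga
Sprr1a, chr3:92485882-92486131, minus strand: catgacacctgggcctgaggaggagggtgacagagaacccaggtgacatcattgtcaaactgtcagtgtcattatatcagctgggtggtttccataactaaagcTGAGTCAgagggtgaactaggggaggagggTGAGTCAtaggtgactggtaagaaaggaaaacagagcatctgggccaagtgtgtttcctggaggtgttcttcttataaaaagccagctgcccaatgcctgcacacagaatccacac
Fgf21 and Atf3 hold the same 8 letters, TTGCATCA, first base at -139 and -110 from the start, which match the pattern on the other strand. Ddit3 holds 1 AP-1 match at -242 and Sprr1a holds 2, at -146 and -116. No match overlaps another. The composite element was in 8 of 25 promoters found for the tested stress list (32.0%): Fgf21, Chac1, Asns, Slc7a11, Nupr1, Vldlr, Gars and Aars. It was in 3.45% of the 32851 promoters in the table and in 2.5% of the 11297 found for the genes tested. Among those found for the 36 higher genes it was in 3 of 22 (13.6%; Apoe, Atf3 and Fgf21), and in none of 40 found for the 51 lower genes. On the nerve injury list it was in 3 of 21 (14.3%; Atf3, Hrk and Tubb3). The AP-1 pattern was in 6.75% of all promoters, 5.54% of those of the genes tested, 4 of the 22 (Vps13d, Ddit3, S100a11 and Sprr1a) and 1 of the 40 (AW551984). It was in 1 of 21 promoters found for the nerve injury list (4.76%; Sprr1a) and in 2 of 25 of the stress list (8.0%; Ddit3 and Slc7a1). The cAMP response element was in 1.55% of all promoters and 3.04% of those of the genes tested. It was in none of the 22, 2 of the 40 (Jak1 and Tenm3), 1 of the 25 (Ppp1r15a) and none of the 21. A match is a string of letters and no measurement of binding. Of the stress genes with the composite element, Fgf21 was the only one called, and Slc7a11 had a log2 change of -0.28 ± 0.44. The 4 promoters were picked for their matches: those of Psat1, Atf4 and Sox11, also called, held none of the 3 patterns and are not shown.

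Outside the injury and stress lists, Cd63 and S100a11 had the smallest p among the higher genes. Cd63 (ENSMUSG00000025351), a tetraspanin of late endosomes and exosomes, had 111.5, 26.9 and 23.2 CPM in mSOD and 2.13 to 6.04 in wt (median 3.72). The groups were far apart and the log2 change was 3.46 ± 0.54 (adjusted p = 0.000191). It was the only one of 24 tested lysosome and autophagy genes to pass, where 0.195% of all genes tested were called higher. S100a11 (ENSMUSG00000027907), a calcium-binding protein, had 39.8, 25.3 and 12.4 CPM in mSOD and 3.4, 0.236, 0, 4.33 and 0 in wt, a log2 change of 3.48 ± 0.55 (adjusted p = 0.000307). It was 1 of 13 tested S100, annexin and galectin genes and the only one called (0.195% of all genes tested were called higher). The 3 pseudogenes in the higher set are near copies of these 2 genes in the GENCODE M21 transcripts: Cd63-ps is 98.0% identical to Cd63 over 858 bases, and Gm12854 and Gm7665 are 99.0% and 98.7% identical to S100a11 over 297 bases. Reads may have been split between copies and parents, so these 3 are uncertain. They lost their calls without mSOD replicate 1 (0.0832, 0.291 and 0.173), and Gm12854 and Gm7665 also without wt replicate 2 (0.15 and 0.117).

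Ccl7, Cd44 and Apoe, chosen here after their values were seen, were also higher. Ccl7, a chemokine that draws monocytes, had 52.7, 24.1 and 12.4 CPM in mSOD and no count in any wt library, which makes it at least 141-fold higher (against 3 counts over the wt group; adjusted p = 0.00777). Its call was lost without mSOD replicate 1 (0.0502) or replicate 3 (0.111). Cd44, a hyaluronan receptor, had 30.2, 24.6 and 1.01 CPM in mSOD and 3 counts in wt, all in replicate 1, a ratio of 93.1 (95% counting interval 31.4 to 455; adjusted p = 0.0115). The mSOD replicate 3 was barely above the wt replicate 1, which had 0.928 CPM, and the call was lost without mSOD replicate 1 (0.188) or wt replicate 2 (0.12). Apoe, the lipid carrier that glia make in quantity, had 52.1, 33.4 and 107 CPM in mSOD and 7.43 to 42.7 in wt, with overlap (adjusted p = 0.0125), and lost its call without mSOD replicate 1 (0.0797) or 3 (0.618). The microglia sums given above (155, 69.3 and 48.8 CPM against 17.8 to 27.2) had the mSOD order of Ccl7 and Cd44. They did not have that of Apoe, which was highest in mSOD replicate 3. The part of microglial RNA was not tested.

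Odc1, the first enzyme of polyamine synthesis, changed little but evenly. It had 134, 94.4 and 97.2 CPM in mSOD and 56.9 to 72.0 in wt (median 62.9), a log2 change of 0.91 ± 0.19 (adjusted p = 0.00777, lost at 0.115 without mSOD replicate 1). It was the only 1 of 11 tested polyamine genes to pass, where 0.195% of all genes tested were called higher. Rasgrf2, a calcium-regulated activator of Ras, had 115, 87.9 and 94.9 CPM in mSOD and 19.2 to 46.4 in wt, at 1.34 ± 0.27 (adjusted p = 0.00507). Rgs10, which shortens G protein signals, had 7.56, 16.5 and 15.5 CPM in mSOD and 0 to 5.57 in wt, at 2.52 ± 0.48 (adjusted p = 0.00353). Mfhas1, a leucine-rich repeat protein, had 6.72, 12.3 and 27.9 CPM in mSOD and 0.888 to 4.64 in wt, at 2.38 ± 0.45 (adjusted p = 0.00378). Rgs10 and Mfhas1 lost their calls without mSOD replicate 3 (0.163 and 0.776), and Rasgrf2 without mSOD replicate 1 (0.0832), mSOD replicate 3 (0.103) or wt replicate 2 (0.0774).

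Some neuronal genes in the higher set, chosen here after their values were seen, had the order of the other-neuron marker sums. Ina, the neurofilament alpha-internexin, had 311, 604 and 743 CPM in the mSOD replicates 1, 2 and 3, and 494 in wt replicate 1 against 133 to 211 in the other 4 wt libraries (log2 change 1.24 ± 0.28, adjusted p = 0.018). The other-neuron sums were 356, 962 and 1250 CPM in the same mSOD libraries and 816 in wt replicate 1. Map1a, a microtubule binder of dendrites, had 216, 236 and 446 CPM in mSOD, 247 in wt replicate 1 and 119 to 179 in the others. Kcnc2, the fast potassium channel Kv3.2, had 30.2, 37.3 and 76.7 CPM in mSOD, 22 in wt replicate 1 and 0.888 to 15.1 in the others. Hcn4, a pacemaker channel, had 12.6, 17.4 and 29.3 CPM in mSOD, 12.4 in wt replicate 1 and 0.71 to 4.03 in the others. For these 4 genes the order of the mSOD libraries was that of the other-neuron sum, and wt replicate 1 was the highest wt library. Without mSOD replicate 3 their adjusted p were 0.988, 0.95, 0.995 and 0.986, and each also lost its call without wt replicate 2, 3 or 4 (0.058 to 0.129), Ina, Kcnc2 and Hcn4 without wt replicate 5 (0.0547, 0.12 and 0.116), and Map1a without mSOD replicate 2 (0.054). The part of other neurons' RNA was not tested.

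Among the 51 lower genes were markers of the fast motor neuron type. Chodl (ENSMUSG00000022860), a lectin-like protein of fast motor neurons, had 82.4, 88.8 and 28.3 CPM in mSOD and 242, 526, 781, 598 and 580 in the wt replicates 1 to 5. Each mSOD library was below the lowest wt library, and the log2 change was -3.06 ± 0.47 (adjusted p = 0.000263). Mmp9, the matrix protease that marks fast-fatigable motor neurons, had 35.6, 25.3 and 15.5 CPM in mSOD and 56 to 123 in wt (median 89.2). It was also without overlap, at -1.62 ± 0.37 (adjusted p = 0.0246, lost without mSOD replicates 1 or 3 or wt replicates 2 or 3, at 0.0554 to 0.637). Vipr2, a receptor for vasoactive intestinal peptide, had 25.2, 23.2 and 10.1 CPM in mSOD and 30.0 to 79.1 in wt, at -1.82 ± 0.43 (adjusted p = 0.0297, lost without mSOD replicates 2 or 3 or wt replicates 2 or 3, at 0.0773 to 0.525). On the list of motor neuron subtype genes, 3 of 18 tested fell, these 3, and none rose, with a median of -0.48, where 0.276% and 0.195% of all genes tested did. With only the 18 lumbar libraries, edgeR called 4 of the 18 genes lower. With only the 8 P112 lumbar libraries it called 0 with the project term and 2 without it. Genes of the slow type did not pass in edgeR, although DESeq2 called Sv2a as higher: Sv2a had 87.7, 187 and 301 CPM in mSOD and 33.4 to 213 in wt, highest in replicate 1 (adjusted p = 0.0599), and Esrrb had 14.3, 10.7 and 30.9 in mSOD and 2.17 to 14.9 in wt (adjusted p = 0.335).

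Most general motor neuron markers had a lower level in mSOD without passing the test. Of the 18 tested, 16 had a negative change (median -0.43), 2 passed (Chodl and Mmp9) and 7 were lower at an unadjusted p under 0.05. Of all genes tested, 48.6% had a positive change, 0.276% passed as lower and 5.08% were lower unadjusted. Isl1, a transcription factor of motor neuron identity, had 3.64, 13 and 12.4 CPM in mSOD and 10.2 to 53.3 in wt (adjusted p = 0.0947). Nefl and Nefm, the light and medium neurofilaments, had log2 changes of -0.73 ± 0.22 and -0.76 ± 0.23 (adjusted p = 0.153 and 0.156), and wt replicate 1 was in or at the edge of the mSOD range for both. Chat was -0.45 ± 0.22 (adjusted p = 0.505), and its groups did not overlap. Prph, the peripheral neurofilament peripherin, was at -0.04 ± 0.26 (adjusted p = 0.987). Without wt replicate 1, 4 of the 18 were called lower and the median was -0.62, and DESeq2 and limma voom also called 4. With only the 8 P112 lumbar libraries, edgeR called 0 lower with the project term and 2 without it.

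Some genes of calcium sensing, excitability and vesicle release were also among the lower ones. Hpcal1 (ENSMUSG00000071379), a neuronal calcium sensor, had the smallest p of all genes tested. It had 72.5, 53.1 and 82.4 CPM in mSOD and 154, 228, 314, 202 and 222 in wt, at -1.52 ± 0.22 (adjusted p = 0.000164). On a list of 25 tested calcium sensors and buffers, 1 gene passed as lower and 0 as higher (0.276% and 0.195% of all genes tested). A positive change was fitted for 14 of the 25 (48.6% of all genes tested), with a median of 0.03. Rab3b, a GTPase of vesicle release, had 132, 73.3 and 38.7 CPM in mSOD and 184 to 385 in wt (median 327), at -1.78 ± 0.28 (adjusted p = 0.000191). It was the only one of 30 tested synaptic vesicle genes to pass (0.276% of all genes tested were called lower), and the list's median was 0.04. Slc10a4, a transporter in cholinergic and monoaminergic vesicles, had 288, 287 and 146 CPM in mSOD and 286 to 600 in wt, where the lowest was replicate 1 (-1.05 ± 0.21, adjusted p = 0.00645, lost without mSOD replicate 3 at 0.405 or wt replicate 2 at 0.0774). Bsn, a presynaptic scaffold gene, was called higher (log2 change 0.84 ± 0.21, edgeR adjusted p = 0.0488). It was picked after its values were seen and lost its call in 5 of the 8 fits that left out a library.

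Channel lists were mixed. Of 35 tested potassium channels, Kcnc2 rose, Kcnk9 fell, and 2 were higher and 7 lower at an unadjusted p under 0.05. Of all genes tested, 0.195% rose and 0.276% fell, and 4.79% and 5.08% were higher and lower unadjusted. Kcnk9, the leak channel TASK3, had 287, 219 and 224 CPM in mSOD and 254 to 696 in wt, with wt replicate 1 lowest (adjusted p = 0.0246, lost without mSOD replicates 2 or 3 or wt replicates 2 or 3, at 0.0747 to 0.648). Dpp10, an auxiliary subunit of A-type potassium channels outside that list, had 13.4, 42.9 and 14.5 CPM in mSOD and 56 to 83.3 in wt, at -1.82 ± 0.31 (adjusted p = 0.000543, and 0.066 without mSOD replicate 3). Kcnj11, a potassium channel also outside that list, was called higher (log2 change 2.09 ± 0.53, edgeR adjusted p = 0.0493). It was picked after its values were seen and lost its call in 5 of the 8 fits that left out a library. Cacna1g, a T-type calcium channel, had 20.2, 12.8 and 11.8 CPM in mSOD and 24.1, 42.8, 45.3, 38.1 and 42.3 in wt, at -1.24 ± 0.29 (adjusted p = 0.0246, lost without mSOD replicates 2 or 3 or wt replicates 2 or 3, at 0.0601 to 0.581). None of 13 tested sodium channels passed (edgeR; 0 higher and 1 lower at an unadjusted p under 0.05; 0 by DESeq2 or limma voom).

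Further lower genes with a small p had varied roles. Dkk3, a secreted protein of the Dickkopf family, had 71.4, 94.4 and 78.7 CPM in mSOD and 142 to 305 in wt (median 247), at -1.59 ± 0.26 (adjusted p = 0.000315). Itm2a, a membrane protein that was on the vascular marker list, had 32.2, 35.9 and 7.40 CPM in mSOD and 128 to 380 in wt (median 175), at -3.54 ± 0.62 (adjusted p = 0.00225, and 0.0832 without mSOD replicate 3). The defining endothelial gene Cldn5 had 0 to 1.39 CPM in all 8 libraries and Flt1 had 0 to 4.03. St8sia2, which adds polysialic acid to NCAM, had no count in mSOD and 4.02, 6.39, 8.0, 4.33 and 11.2 CPM in wt, which makes it at least 22.5-fold lower (against 3 counts over the mSOD group; adjusted p = 0.00387, and 0.0882 without mSOD replicate 3). Imp3, a part of the small-subunit ribosome assembly complex, had 12.3, 21.6 and 20.5 CPM in mSOD and a narrow 38.2 to 48.3 in wt (-1.31 ± 0.24, adjusted p = 0.00225). Pgf, a growth factor of the VEGF family, had 9.24, 11.1 and 9.08 CPM in mSOD and 30.9 to 46.5 in wt (adjusted p = 0.0338). Both groups were tight, yet its call was kept only in 2 of the 8 fits that left out a library. Mest and Tpd52l1 were also among the 12 lower genes with the smallest p. They fell by 1.85 and 1.48 on the log2 scale and lost their calls without mSOD replicate 3 (0.28 and 0.253), and Tpd52l1 also without wt replicate 2 (0.0711).

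Further called genes rested on fewer of the fits that left out a library, and were picked for mention after their values were seen. Tubb6, a beta-tubulin that axotomised neurons raise, had 73.1, 35.7 and 54.2 CPM in mSOD and 6.22 to 30 in wt without overlap (1.74 ± 0.38, adjusted p = 0.0147, lost without mSOD replicates 1 or 3 or wt replicates 2 or 3, at 0.0508 to 0.146). Crem, a modulator of cAMP response genes, had 41.5, 26.2 and 55.9 CPM in mSOD and 10.6 to 18.9 in wt (1.59 ± 0.38, adjusted p = 0.0308), and passed in 2 of the 8 fits, without mSOD replicate 2 or wt replicate 1 (0.0548 to 0.525 in the other 6). The call of Pmfbp1 rested most on 1 library. It had 0.28, 0.464 and 9.76 CPM in mSOD and no count in wt, at least 13.7-fold higher over the group (adjusted p = 0.0147, and 1.0 without mSOD replicate 3, 0.0718 without wt replicate 4 and 0.0506 without wt replicate 5). Among the lower genes, Tenm3, a teneurin of cell adhesion, had 7.84, 10.4 and 1.35 CPM in mSOD and 11.8 to 29.3 in wt (-2.06 ± 0.40, adjusted p = 0.00387, and 0.193 without mSOD replicate 3). Its mSOD libraries were all below the lowest wt library, as were those of Col5a1. Col5a1, a fibrillar collagen, had 19.3, 19.9 and 5.38 CPM in mSOD and 28.4 to 134 in wt (-2.31 ± 0.52, adjusted p = 0.019, lost without mSOD replicate 3 at 0.525 or wt replicate 4 at 0.0797). Jak1, a kinase of cytokine receptors, had 289, 518 and 272 CPM in mSOD and 400 to 749 in wt. Its groups overlapped through mSOD replicate 2, and its call (-0.90 ± 0.22, adjusted p = 0.0469) held in 1 of the 8 fits, the one without wt replicate 1 (0.0528 to 0.448 in the other 7).

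The called genes were also compared between nuclei in wild-type mice, where no transgene is present. In P56 wild-type mice (5 lumbar and 3 CN3/4 libraries, none of them a P112 library), 44 of the 51 lower genes (86.3%) had more RNA in lumbar than in CN3/4 motor neurons, against 45.9% of all genes tested. For 31 of the 51 (60.8%) that difference passed an adjusted p under 0.05, against 5.79% of all genes tested, and the median difference was 1.22 on the log2 scale. Dkk3 (3.57), Hpcal1 (2.66), Chodl (2.60), Mmp9 (4.61) and Itm2a (4.72) were among them. The 36 higher genes had a median difference of -0.55, with 9 of 36 (25.0%) higher in lumbar neurons and 8 (22.2%) called lower there, against 4.74% of all genes tested. The lower genes were also the more abundant: their median in P56 wild-type lumbar libraries was 35.3 RPKM (the authors' length-scaled unit), against 3.85 for the higher genes and 5.96 for all tested. The share of genes of like abundance with such a difference was not computed. Within P11355, the project that holds both kinds of P56 wild-type library (2 lumbar, 3 CN3/4), 43 of the 51 (84.3%) were higher in lumbar neurons and 7 of the 36 (19.4%), against 44.9% of all genes tested.

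**Figure D4:**
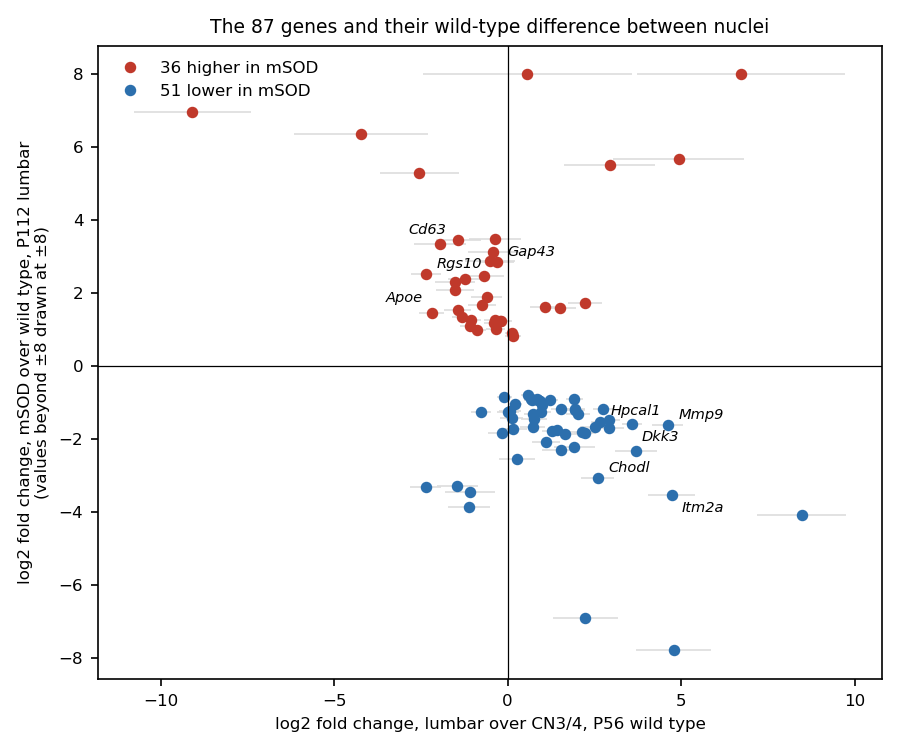
For the 87 called genes, the log2 fold change of lumbar over CN3/4 motor neurons in P56 wild-type mice (x, with standard errors in grey, drawn to at most 3) against the log2 fold change of mSOD over wild type in P112 lumbar neurons (y). Of the 51 lower genes, 44 lie to the right of 0, and of the 36 higher genes, 9 do.

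Some P112 calls were also made at P56. In the same tissue at P56 (5 mSOD and 5 wt libraries), 100 genes passed (0.541% of those tested). Of the P112 genes, 8 of the 36 higher and 13 of the 51 lower were called at P56 too, and the medians at P56 were 0.85 and -0.66. Within P6362 alone (5 mSOD, 3 wt) these medians were 0.76 and -0.65. Hpcal1 was at -1.52 ± 0.22 at P112 and -1.47 ± 0.19 at P56. Ddit3 was at 1.90 at both ages (SE 0.41 and 0.39), and Atf4 at 1.02 at both (SE 0.24 at each). The ages were compared by an interaction term, and for these 3 genes the difference of effects was at most 0.05 in size, with an adjusted p of 1 (log2 scale; Hpcal1 -0.05, Ddit3 -0.01).

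Sprr1a was the 1 gene whose genotype effect differed between the ages (0.00541% of genes tested; edgeR interaction; 1180 genes, or 6.38%, at an unadjusted p under 0.05). At P56 it had 0, 0, 0, 2.37 and 4.82 CPM in mSOD and 0, 0, 0, 1.07 and 46.2 in wt, against 99.6 to 802 CPM in mSOD at P112. The difference of effects was 15.4 ± 2.24 on the log2 scale (adjusted p = 0.00452, and 0.724 in a fit of the 18 lumbar libraries alone). Its size depends on the prior count because the P112 wt libraries are near 0. The P56 wt library with 46.2 CPM also enters this difference, and its part was not tested. Gap43 had 15.3 to 35.4 CPM in P56 mSOD (median 24.9) and 2.16 to 33.2 in P56 wt (median 13.1), so the groups overlapped, where at P112 they did not. Its difference of effects was 2.19 (unadjusted p = 0.00075, adjusted p = 0.411). Atf3, by contrast, was called at both ages, with 0 to 75.4 CPM in P56 mSOD (median 8.42) and 0 to 0.593 in wt. Chodl had 200 to 392.1 CPM in P56 mSOD (median 295) and 684 to 1030 in wt (median 946), and its log2 change was -1.52 ± 0.36 at P56 and -3.06 ± 0.47 at P112, with an adjusted p of 0.702 for the difference.

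Of the nerve injury list, 2 genes were called in hypoglossal neurons, Sprr1a and Gal. In CN12 at P112 (3 mSOD and 3 wt libraries), 13 genes passed (0.0703% of those tested), all higher, and 8 of them were among the 36: Sprr1a, Cd63, S100a11, Odc1, Cd44 and the 3 pseudogenes. Sprr1a had 436, 686 and 989 CPM in CN12 mSOD and 0 to 0.207 in wt. S100a11 had 50.5, 91.3 and 135 CPM in CN12 mSOD and 0.276 to 1.65 in wt, and its log2 change was 6.43 ± 0.65 there and 3.48 ± 0.55 in lumbar neurons (adjusted p of the difference = 0.401). Gap43 had 141, 175 and 245 CPM in CN12 mSOD and 40.9 to 63.7 in wt without overlap (adjusted p = 0.171). Fgf21 had no count in any of the 6 CN12 libraries. Ddit3 had 17.6 to 25.9 CPM in CN12 mSOD and 18 to 28.5 in wt, at 0.15 ± 0.47, and the difference from the lumbar effect had an adjusted p of 0.548. Atf3 and Sox11, the other injury genes called in lumbar neurons, were not called in CN12, although their groups there did not overlap. Atf3 had 25.58, 55.93 and 88.76 CPM in CN12 mSOD and 0.8287 to 3.308 in wt. Sox11 had 24.55, 33.11 and 60.06 CPM in CN12 mSOD and 11.99 to 18.02 in wt. The median CN12 change was 0.882 for the nerve injury list, 0.26 for the stress list and 0.37 for the 36 higher genes. Over all genes tested that median was -0.0207.

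The 51 lower genes had a median change of -0.13 in CN12 and -0.05 in CN3/4, and 20 and 23 of them were positive there. No gene passed in CN3/4 (0.0%; edgeR; 587, or 3.17%, at an unadjusted p under 0.05), and the 36 higher genes had a median of 0.03 there. The interaction of genotype and nucleus was called for 9 genes between lumbar and CN12 neurons (0.0487% of those tested), of which 6 were among the 87, including Hpcal1, Rab3b, Chodl, Cyp51 and Rgs10. Between lumbar and CN3/4 neurons it was called for Hpcal1 alone (0.00541%).

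Hpcal1 had 62.5, 69.6 and 77.1 CPM in CN12 mSOD and 56.2, 59.7 and 64.9 in CN12 wt. In CN3/4 it had 19.0, 40.0 and 43.1 in mSOD and 20, 24.9 and 29.0 in wt. The lumbar wt libraries (154 to 314 CPM) were far above both nuclei, and the lumbar mSOD libraries (53.1 to 82.4) were near the CN12 level. The difference of effects was -1.80 ± 0.31 against CN12 (adjusted p = 0.00541) and -1.98 ± 0.32 against CN3/4 (adjusted p = 0.00217). Chodl had 183 to 412 CPM in CN12 mSOD and 209 to 266 in wt, a difference of effects of -3.03 ± 0.63 (adjusted p = 0.0436). Rab3b had 197 to 354 CPM in CN12 mSOD and 249 to 304 in wt, and its difference was -1.98 ± 0.38 (adjusted p = 0.0258). Cyp51, a sterol demethylase of cholesterol synthesis, had 64.4, 72.3 and 38.7 CPM in lumbar mSOD and 78.2 to 125 in lumbar wt, but 87.8, 88.0 and 117 in CN12 mSOD and 60.4, 64.1 and 67.6 in CN12 wt. Neither pair of groups overlapped and the directions were opposite, with a difference of effects of -1.43 ± 0.29 (adjusted p = 0.0306), although the CN12 change alone did not pass (0.50, adjusted p = 1). Rgs10, higher in lumbar mSOD, had 4.38 to 5.80 CPM in CN12 mSOD against 9.91 to 14.4 in wt, a difference of 3.78 ± 0.63 (adjusted p = 0.00453). These differences leaned on single lumbar libraries. Hpcal1 against CN12 lost its call without mSOD replicate 3 (0.0919) or wt replicate 2 (0.0506), Rab3b without the same libraries (0.751 and 0.0809), and Rgs10 without mSOD replicate 3 (0.0919). Cyp51 lost it without mSOD replicate 3 (0.751), wt replicate 2 (0.0548) or wt replicate 5 (0.0618), and Chodl kept it only without mSOD replicate 1 or wt replicate 1. Hpcal1 against CN3/4 kept its call without any of the 8 (at most 0.0424). Without lumbar mSOD replicate 3, no gene passed for the CN12 comparison (edgeR; 606 at an unadjusted p under 0.05), without wt replicate 2 there was 1, without wt replicate 4 or 5 there were 5 or 4, and without mSOD replicate 1 or wt replicate 1 there were 41 or 30.

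**Figure D5:**
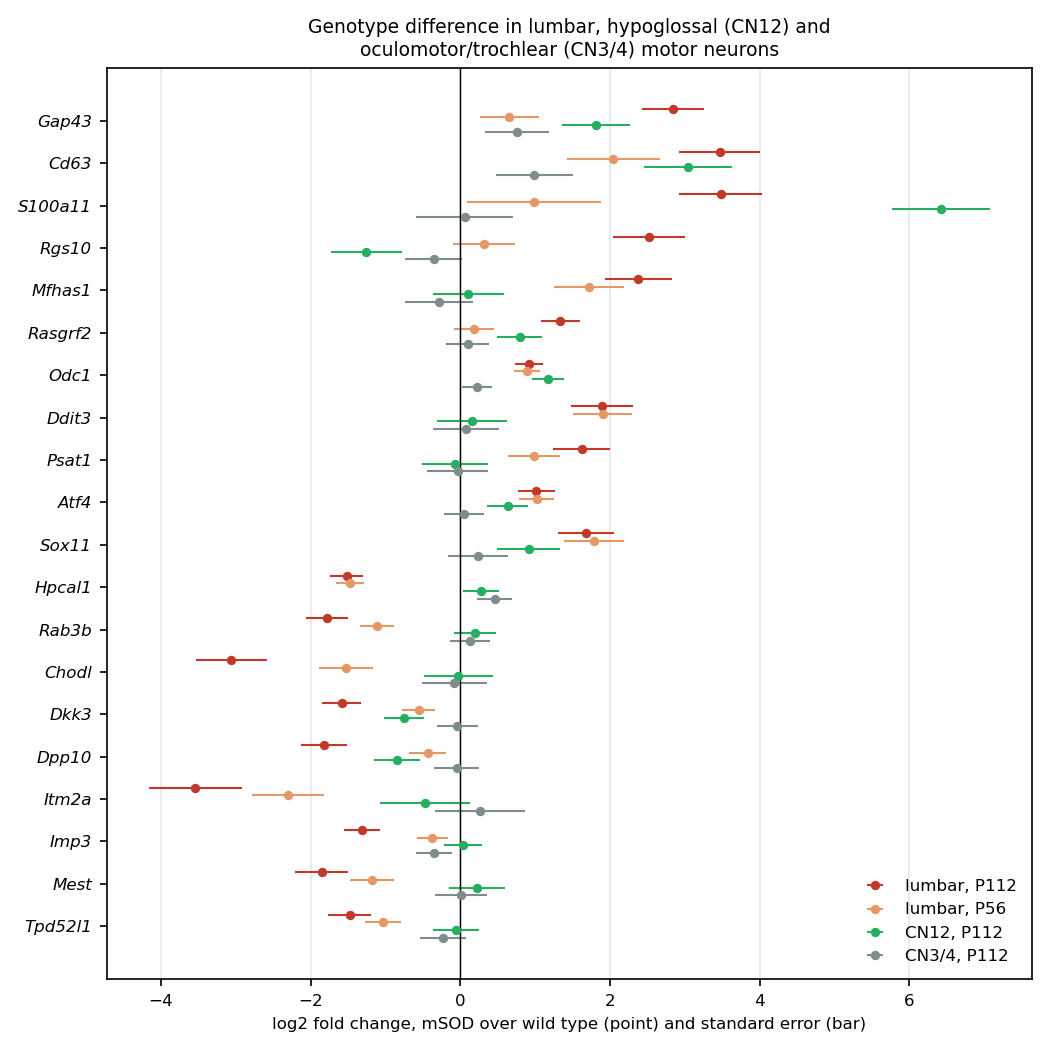
Log2 fold change of mSOD over wild type with its standard error for 20 called genes in lumbar neurons at P112 and P56 and in CN12 and CN3/4 neurons at P112. Hpcal1 is at -1.52 and -1.47 in the lumbar comparisons and at 0.28 and 0.46 in CN12 and CN3/4, S100a11 is at 6.43 in CN12 and 3.48 in lumbar P112, and Ddit3 is at 1.90 at both lumbar ages.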

How the data were processed

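Of the 54 libraries, the 8 of P112 lumbar motor neurons were compared, 3 mSOD with 5 wild type. The deposited table of counts holds whole reads per gene for 55354 mouse genes and the human SOD1 entry, and the RPKM table beside it was also made by the authors. STAR 2.7.0e and the builds GRCm39 and mm39 are named in the submitters' processing notes, without their roles. The counting program and the annotation are not given in the sources used here. The labels' protocols describe laser capture, Smart-seq2 and polyA priming, without molecular identifiers, so reads of 1 fragment copied by PCR are not independent and the counting intervals (95%) cover counting error only.

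From the counts, edgeR 4.0.16 (R 4.3.3) fitted all 54 libraries at once (16 groups plus project, TMM scaling, filterByExpr, robust quasi-likelihood test), with Benjamini-Hochberg adjustment over 18493 mouse genes and an adjusted p under 0.05 as the threshold. Human SOD1 reads were part of the library sizes, but that entry was not tested. Standard errors are the log2 fold change over the square root of F. Levels are CPM, and log2 CPM (prior count 2) served the checks of overlap and of projects. The same fit gave the differences of the genotype effect between ages and nuclei. A group without counts was set at 3 counts over the group. The script was tested on simulated data. Alternatives were DESeq2 1.42.0, limma 3.58.1 and other filters, samples and scalings.

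Symbols came from a GENCODE M21 name table (18416 of the tested genes), and promoters from RefSeq GRCm38.p6, matched by symbol, with 22 of the 36 higher and 40 of the 51 lower genes found. That build differs from the authors', so only names and sequences were used. Genes named are the 12 higher and 12 lower with the smallest p, list members that passed or else up to 3 with the smallest p, and genes with a called difference of effects, besides others said to be chosen later or given for context. Of these, 2 lower genes are not reported here. The comparison, the 27 lists and the rule were chosen with earlier results of these data known. No 2 libraries of a group agreed within sampling noise (chi-square per gene 3.98 to 34.0). The labels name biological replicates without identifying animals.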

Additional observations from a re-analysis of the deposited data

Results flagged for a closer look

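Among the 5 wild-type P112 lumbar libraries, 1 library was set apart from the other 4 by its gap over range (above 0.71) for 5 of 79 genes examined. The ratio is 1.0 whenever only 1 library has a count, however few. The usual chance rate of about 1 in 20 assumes normally distributed values, so 5 of 79 cannot be set against it. Sprr1a had a ratio of 1.0 because only replicate 3 had a count, Slc7a3 1.0 because only replicate 2 had counts, and Ngfr 1.0 because only replicate 1 had them. Hbb-bs, a beta-globin, had a ratio of 0.71 with replicate 4 lowest. Cacna1g had a ratio of 0.724 with replicate 1 lowest, at 24.1 CPM against 38.1 to 45.3, which is the library whose motor neuron marker sum was also the lowest of the wild types.

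Between comparisons, the genotype effect differed by the interaction test for the 6 genes given here. Sprr1a differed between P112 and P56 in lumbar neurons by a fitted 15.4 on the log2 scale, a size that depends on the prior count (adjusted p = 0.00452). Between lumbar and CN12 neurons the differences were -1.43 for Cyp51, -1.98 for Rab3b, -3.03 for Chodl, 3.78 for Rgs10 and -1.8 for Hpcal1. Between lumbar and CN3/4 neurons Hpcal1 differed by -1.98.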

How the results depend on the processing

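The count of 87 genes was 88 with RLE size factors, 88 without the project term (66 of the 87 among them), 87 without human SOD1 in the library sizes and 85 without robust estimation. It was 265 without a filter on low counts, 206 with DESeq2 (82 shared), 164 with limma voom and sample weights (69 shared), 37 with only the 18 lumbar libraries (32 shared), and 13 or 12 with only the 8 libraries, with or without project. Leaving out 1 library gave 20 to 174. The share of higher genes, 41.38%, was 18.92% in the 18 libraries, 53.85% in the 8 with project, 54.03% without mSOD replicate 1 and 75.0% without mSOD replicate 3.

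The difference between ages was called for 73 genes without a filter, 13 with DESeq2 (which gave Sprr1a no adjusted p), 0 with the 18 lumbar libraries (edgeR; 785 at an unadjusted p under 0.05) and 1 to 4 without 1 library. That between lumbar and CN12 neurons was called for 103 without a filter, 29 with DESeq2 and 0 to 41 without 1 library. That between lumbar and CN3/4 neurons was called for 105, 25 and 1 to 28 in these settings and 2 without project. Within P10814 Ina had -0.052 (mSOD minus wt). Of 39 named genes that passed, 39 passed with RLE, 37 without a filter, 35 without project, 36 with voom, 36 of 38 with DESeq2, 20 of 38 in the 18 libraries and 6 or 10 of 38 in the 8.

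No paired analysis was possible because the labels give no replicate numbers, only library names. Low counts limit genes such as Slc7a3 and Cd44, whose wild-type groups hold 2 and 3 counts.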

Other observations

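A list of 22 genes of cholesterol synthesis was written after the values had been seen, so its counts are a description. All 22 had a negative change in P112 lumbar neurons in the edgeR fit of 54 libraries, with a median of -0.48 against -0.01 for all genes tested. Of these, 3 passed the threshold (Hsd17b7 at -1.19, Cyp51 at -0.93 and Nsdhl at -0.92), 10 were lower at an unadjusted p under 0.05, and the groups did not overlap for 8, mSOD being lower. Of all genes tested, 0.276% passed as lower, 5.08% were lower unadjusted and 2.58% had no overlap with mSOD lower. The median was -0.44 in lumbar neurons at P56, 0.65 in CN12 and 0.13 in CN3/4 neurons. Over the alternatives the P112 lumbar median ranged from -0.65 to -0.36 and the calls from 0 to 3. Without mSOD replicate 3, Hsd17b7, Cyp51 and Nsdhl had adjusted p of 0.522, 0.624 and 0.525.

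Usp11 and Cd24a had a genotype effect that differed between lumbar and CN12 neurons (2.24 and -2.09 on the log2 scale; edgeR adjusted p = 0.0371 and 0.0306) without passing in the lumbar comparison itself (adjusted p = 0.267 and 0.333). Without lumbar mSOD replicates 2 or 3 or wt replicate 2 both lost that call (0.0641 to 0.848), and Usp11 also without wt replicates 4 or 5 (0.0517 and 0.0643). Wipf3 had such a difference too (adjusted p = 0.0306; 0.0634 in the lumbar comparison), with no count in the 3 CN12 mSOD libraries and 0.3 to 1.93 CPM in CN12 wt, so that no size is given. It lost the call without lumbar mSOD replicates 2 or 3 or wt replicates 2, 4 or 5 (0.0517 to 0.343).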
